A study of Mus musculus with 10 samples.

Results

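The genes described here were 6 markers of the extraembryonic ectoderm, *Elf5*, *Esx1*, *Ascl2*, *Wnt7b*, *Tinagl1* and *Tex19.1*. They were chosen by name as markers of this tissue, with earlier results of these data known, and they make up 6 of the 26842 genes found in both count tables of the study. Each of them had 1 row in each table.

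The study followed the differentiation of mouse embryonic stem cells (ESC) through epiblast-like cells (EpiLC) to primordial germ cell-like cells (PGCLC) by droplet-based scRNA-seq. Of its 10 libraries, 8 came from wild-type E14Tg2a, a male ESC line, and 2 from R1, another male ESC line. There was 1 library per group and no replicate.

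The E14Tg2a libraries were ESC grown with 2 kinase inhibitors and LIF (2i ESC), ESC grown in serum with LIF (S+L ESC), EpiLC after 1, 2 and 3 days with Activin A, bFGF and KSR (d1, d2 and d3 EpiLC), epiblast stem cells (EpiSC), and embryoid bodies (EB) made from d2 EpiLC and collected after 2 and 4 days (d2 EB and d4 EB). The EB grew in suspension with BMP4, SCF, LIF and EGF. The R1 libraries were d4 EB of wild-type cells (WT) and of *Mll3/4* dCD cells, 1 line derived from R1 in which point mutations remove the catalytic activity of the histone methyltransferases MLL3 and MLL4. Counts at the 3′ ends of transcripts do not read these mutations, so they give no check of the genotype.

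Total UMIs were 8757170 in 227 2i ESC, 10103178 in 309 S+L ESC and 12760723 in 373 EpiSC. The EpiLC held 10997941 UMIs in 280 cells at d1, 11155833 in 289 cells at d2 and 14082462 in 399 cells at d3. The EB libraries held 14649279 UMIs in 537 cells at d2, 9603598 in 368 cells at d4, 20586629 in 1416 R1 WT cells and 22887974 in 1699 dCD cells. Median UMIs per cell were 28909 to 36750 in the ESC, EpiLC and EpiSC libraries, 24510 in d2 EB, 21658 in d4 EB, 13187.5 in WT and 11751 in dCD. The E14Tg2a and R1 tables were made with different chemistries, so their levels are only set side by side. Any pair of E14Tg2a libraries shared at most 2 cell barcodes, and the R1 libraries shared 0.

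The extraembryonic ectoderm is the trophoblast tissue that caps the epiblast of the early postimplantation mouse embryo. It holds trophoblast stem cells, from which the chorion and much of the placenta form, and it secretes BMP signals that induce germ cells in the neighboring epiblast. Its markers include transcription factors, secreted proteins and genes shared with germ cells, so that several of them have to be read together in 1 cell.

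Among the transcription factors, *Elf5* (ENSMUSG00000027186, chr2:103411688-103450989, plus strand) encodes an ETS factor that maintains trophoblast stem cells. *Esx1* (ENSMUSG00000023443, chrX:137115397-137122083, minus strand) encodes a homeobox factor of the trophoblast, and the imprinted *Ascl2* (ENSMUSG00000009248, chr7:142966829-142969264, minus strand) a bHLH factor needed for the spongiotrophoblast. The secreted products are those of *Wnt7b* (ENSMUSG00000022382, chr15:85535437-85582473, minus strand), a WNT ligand needed for the fusion of chorion and allantois, and of *Tinagl1* (ENSMUSG00000028776, chr4:130164454-130175122, minus strand), a matrix-associated protein. *Tex19.1* (ENSMUSG00000039329, chr11:121146143-121148319, plus strand) acts in germ cells, pluripotent cells and placenta. Coordinates are those of GRCm38, and all 6 genes are annotated as protein coding. *Tex19.1* has a near copy, *Tex19.2*, with which reads could be shared.

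The level of a gene is given as CPM, its UMI sum per 10⁶ UMIs of the library, with an exact 95% Poisson interval. Shares of cells have exact 95% Clopper-Pearson intervals and ratios exact conditional 95% intervals. Where a count was 0, the upper limit given is not the end of such an interval but a floor of 3 counts over the total, and it limits cells with a UMI, not cells that express the gene. All of these cover counting error only, and no difference has a replicate check. Since 3′ counts differ in efficiency from gene to gene, levels are compared between libraries and not between genes. *Tex19.2* stayed at or below 1.08 CPM in d2 EpiLC and the EB libraries. The number of reads it shares with *Tex19.1* was not tested, so this level sets no bound on the error of the *Tex19.1* counts.

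*Elf5* was at or near the limit of detection in every library. It had 3 UMIs in d4 EB, 2 in dCD, 1 each in d2 EpiLC and EpiSC, and 0 in the other 6 libraries, including d2 EB (0 of 537 cells, which allows a share of up to 0.559%) and WT (0 of 1416 cells, up to 0.212%). This factor of the trophoblast stem cell state was therefore not detected in nearly all EB cells at this depth.

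*Esx1* was low before EB formation, at 0.914 CPM in 2i ESC, 1.19 in S+L ESC, 0.455, 0.627 and 0.213 in d1, d2 and d3 EpiLC and 0.862 in EpiSC. In the EB it reached 8.12 CPM (6.73 to 9.72) at d2 and 4.998 (3.69 to 6.63) at d4 in E14Tg2a, and 10.5 (9.18 to 12.0) in WT and 12.6 (11.2 to 14.1) in dCD. Within E14Tg2a, both EB libraries thus lay above the 6 others. *Ascl2* did not follow this order. It had 3.31 CPM in 2i ESC, 10.0 in S+L ESC, 2.36, 4.03 and 0.781 in d1, d2 and d3 EpiLC, 8.07 in EpiSC, 8.12 (6.73 to 9.72) in d2 EB, 12.8 (10.6 to 15.3) in d4 EB, 0.923 (0.556 to 1.44) in WT and 0.961 (0.602 to 1.46) in dCD. The gene was thus not limited to EB in E14Tg2a, and 1 cell held 36.6% of the *Ascl2* UMIs of d4 EB and another 52.6% of those of WT.

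*Wnt7b* had 0.343 CPM in 2i ESC, 1.09 in S+L ESC, 0.182 in d1 EpiLC, 0 UMIs in d2 EpiLC, 0.781 CPM in d3 EpiLC and 0.235 in EpiSC. Its EB levels were 3.55 CPM (2.65 to 4.65) at d2, 3.96 (2.80 to 5.43) at d4, 2.33 (1.72 to 3.09) in WT and 6.34 (5.35 to 7.45) in dCD, so that in E14Tg2a it was highest in the EB. *Tinagl1* went from 1.37 CPM in 2i ESC, 1.09 in S+L ESC, 4.47 in EpiSC and 0.182, 0.538 and 4.62 in d1, d2 and d3 EpiLC to 24.7 (22.2 to 27.4) in d2 EB and 78.5 (73.0 to 84.3) in d4 EB. It had 47.6 CPM (44.7 to 50.7) in WT and 24.8 (22.8 to 26.9) in dCD, and within E14Tg2a both EB levels were several times those of all other libraries.

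*Tex19.1* had another course. Its level was 9.71 CPM in 2i ESC, 24.3 in S+L ESC and 34.6 in d1 EpiLC, then 11.6 and 6.04 in d2 and d3 EpiLC and 0.549 in EpiSC. In the EB it was 2.66 CPM (1.89 to 3.64) at d2 and 8.12 (6.42 to 10.1) at d4, where 1 cell held 32.1% of its UMIs, and 4.71 (3.82 to 5.75) in WT and 23.2 (21.3 to 25.3) in dCD. In E14Tg2a this gene was thus highest before EB formation, and in R1 it was higher in dCD than in WT.

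**Figure D1:**
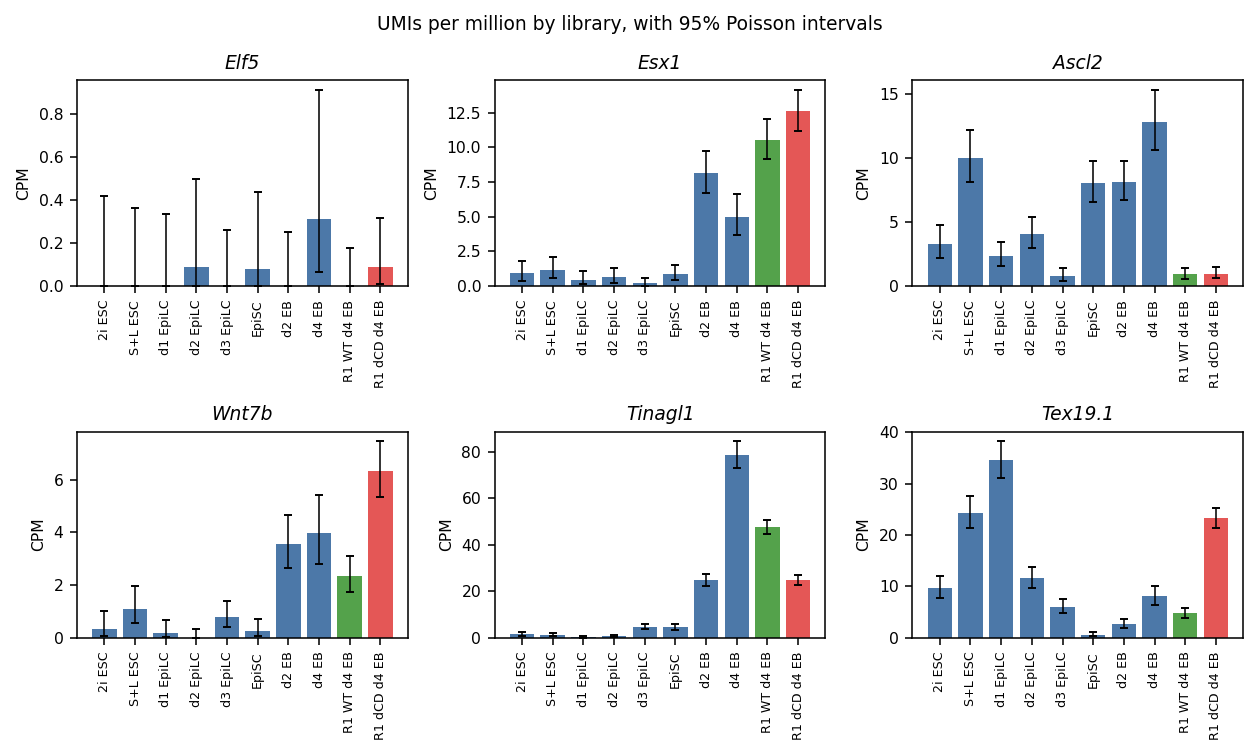
Bars show the level of each of the 6 genes in CPM in the 10 libraries, with 95% Poisson intervals (E14Tg2a in blue, R1 WT in green, R1 dCD in red), and each panel has its own axis starting at 0. Within E14Tg2a, *Esx1*, *Wnt7b* and *Tinagl1* are highest in the EB libraries and *Tex19.1* in d1 EpiLC (34.6 CPM), and *Elf5* has at most 3 UMIs in any library.

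The step from d2 EpiLC to d2 EB shows what appears with EB formation. A gene was called where its log2 ratio, with 1 CPM added to both levels, was past 2-fold in either direction, among genes with at least 10 UMIs over both libraries. Of the 5 genes tested (*Elf5* had too few UMIs), 4 were called, against 22.9% of the 13744 genes tested (3146 genes), a larger share than over all genes. *Tinagl1* rose 45.9-fold (20.9 to 126, log2 ratio 4.06) and *Esx1* 12.9-fold (6.09 to 32.9, log2 2.49), and *Wnt7b*, with 52 UMIs against 0, was 13.2-fold above a floor of 3 UMIs in d2 EpiLC and at least 10.4-fold higher by the lower end of the exact interval. Its log2 ratio of 2.19 moved to 1.72 with equally weighted cells, 1.46 with thinned cells and 5.19 with a pseudocount of 0.1 CPM, and the call was kept. *Tex19.1* fell, with a ratio of 0.230 (0.157 to 0.332, log2 -1.78), and *Ascl2*, at a ratio of 2.01 (1.42 to 2.90, log2 0.86), was not called. So the rise was shared by 3 of the 6 genes, and 1 moved the other way.

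A list of 15 other markers of the extraembryonic ectoderm moved in the same step. Of these, 11 were higher in d2 EB and 1, *Eomes*, was lower, with a median log2 ratio of 2.70 against 0.06 over all genes. Among the regulators of trophoblast stem cells 12 of 16 were higher and 1 lower, and all 4 simple keratins were higher. Of the other lists, 2 of 3 Rhox homeobox genes, 6 of 7 genes of later trophoblast, 7 of 14 signals, receptors and surface proteins, 2 of 8 WNT receptors and targets and 1 of 3 relatives of the 6 genes were higher, and 1, 0, 4, 2 and 0 of them were lower. Markers of extraembryonic mesoderm (6 of 6 tested), of PGC (6 of 6) and of primitive streak (6 of 8, with *Eomes* lower) were higher as well. So were markers of naive pluripotency (5 of 6), surface ectoderm (3 of 4) and endothelium (2 of 3), endoderm had 1 higher and 1 lower of 5, and 0 of 2 markers of 2-cell embryos and 0 of 1 of primitive blood were called. The part of these cell types in the summed levels was not tested.

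From d2 to d4 EB, *Tinagl1* rose 3.18-fold (2.80 to 3.61, log2 1.63) and *Tex19.1* 3.05-fold (2.05 to 4.60, log2 1.32). These 2 of 5 genes were called, against 13.3% of 13813 genes tested, so that 3 of 5 stayed within 2-fold as most genes did. With a pseudocount of 0.1 CPM, 2879 genes in place of 1833 were past 2-fold. The ratio was 1.58 (1.22 to 2.05, log2 0.60) for *Ascl2*, 1.11 (0.714 to 1.73, log2 0.12) for *Wnt7b* and 0.615 (0.431 to 0.867, log2 -0.61) for *Esx1*. The call of *Tex19.1* rests in part on the 1 cell with 32.1% of its d4 UMIs. With the cell richest in the gene left out of each library, an alternative chosen after seeing the data, its log2 ratio was 0.95, short of a call. The sign for *Ascl2* turned when cells were weighted equally (log2 -0.15) or thinned to the same number of UMIs (log2 -0.03), and the cause was not tested. The median log2 ratio of all genes was 0.11, a shift relative to which these values should be read. The sum of the 6 genes was 47.2 CPM at d2 and 109 at d4, a log2 ratio of 1.19 that dropped below the 2-fold line with equally weighted cells (0.87) and just below it with thinned cells (0.996).

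In the same interval 6 of the 15 other markers were higher, *Rhox6*, *Rhox9*, *Plet1*, *Krt7*, *Fgfr2* and *Gjb5*, and *Cdx2* was lower, with a median log2 ratio of 0.39. All 3 Rhox genes and 2 of 4 simple keratins were higher. Counts were 1 higher and 2 lower of 16 regulators of trophoblast stem cells, 3 and 1 of 14 signals, receptors and surface proteins, 2 and 1 of 8 genes of later trophoblast, 1 and 3 of 8 WNT receptors and targets and 0 of 2 relatives. Other cell types changed as well. Markers of endothelium (8 of 8) and primitive blood (5 of 6) were higher at d4, extraembryonic mesoderm had 5 higher and 1 lower of 8, and 6 of 7 primitive streak markers were lower. PGC markers had 0 higher and 1 lower of 6, and none were called of 4 for endoderm, 2 for 2-cell embryos, 6 for naive pluripotency and 4 for surface ectoderm. Their part in the differences of the 6 genes was not tested here either. The 15 markers summed to 457 CPM at d2, led by *Cdx2* with 234, and to 855 at d4, led by *Rhox6* with 327, and none of them was at 0 UMIs. *Cdx2* is also a gene of posterior mesoderm, and in E14Tg2a EB it was lower inside the *Esx1*-rich cells than outside them.

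To see which cells carried the genes, each EB library of E14Tg2a and the R1 libraries together were clustered without the 6 genes. At d2, 1 cluster of 55 cells (cluster 3, median 35278 UMIs) held 96.6% of the *Esx1* UMIs of the library, 94.2% of those of *Wnt7b*, 92.8% of those of *Tinagl1* and 58.0% of those of *Ascl2*. *Tinagl1* was detected in 46 of its cells (83.6%, 157 CPM), *Wnt7b* in 24 (22.9 CPM), *Esx1* in 23 (53.8 CPM) and *Ascl2* in 11 (32.3 CPM). By cells *Ascl2* was spread more widely, with 19 positive cells in the mesoderm-like cluster and 10 in the PGC-like cluster, the latter at 10.04 CPM and with 25.2% of its UMIs. Among the 91 cells of d2 EB that the authors list as PGCLC, 1 cell held 46.7% of the *Ascl2* UMIs. *Tex19.1* was not concentrated in cluster 3, with 5 cells and 12.8% of its UMIs. The mesoderm-like cluster of the same library (386 cells, median 23405.5 UMIs) is given as a background. In it *Wnt7b* was found in 0.259% of cells, *Esx1* in 0.777%, *Tinagl1* in 4.66% and *Ascl2* in 4.92%, the 19 cells named above. Free RNA and expression in these cells were not told apart.

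Cluster 3 of d2 EB could not be named from its other markers. Of the 15 markers, the 12 with at least 10 UMIs in the library had a median 2.05-fold level over the other cells. This was below the 4.17-fold of the 4 surface ectoderm markers with as many UMIs. The 10 leading genes of the cluster, however, held *Krt7* and *Rhox9*, both of the extraembryonic ectoderm list, and no surface ectoderm marker. With the lists at odds it was left unnamed. *Gata2* had 204 CPM in it against 16.4 in the other cells, *Rhox9* 124 against 4.64, *Rhox6* 88.0 against 4.00 and *Krt7* 54.7 against 0.879. *Cdx2* had 26.2 CPM against 269, *Eomes* 0.468 (1 UMI) against 0.400 and *Sox21* 0 UMIs against 0.719 CPM. Thus *Esx1*, *Wnt7b* and *Tinagl1*, and *Ascl2* in part, met in 1 group of cells at d2. In this group *Elf5* and *Eomes*, defining factors of trophoblast stem cells, were at or near 0, as in the other cells of the library, and *Cdx2* was lower than elsewhere.

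By d4 a cluster of 39 cells (cluster 3, median 39004 UMIs) passed as extraembryonic ectoderm-like, with 10 of 12 detected markers at least 2-fold higher than in the other cells. It held 97.6% of the *Ascl2* UMIs of the library, 92.7% of those of *Tinagl1*, 87.5% of those of *Esx1*, 76.3% of those of *Wnt7b*, 69.2% of those of *Tex19.1* and all 3 UMIs of *Elf5*. *Tinagl1* was detected in 37 of its cells (373 CPM), *Ascl2* in 14 (64.0 CPM), *Esx1* in 14 (22.4 CPM), *Wnt7b* in 11 (15.5 CPM), *Tex19.1* in 9 (28.8 CPM) and *Elf5* in 2 (1.60 CPM). All 6 genes were thus found in these cells, *Elf5* barely. Among the endothelium-like cells of the library (27 cells, median 32900 UMIs), *Tinagl1* was found in 8 (29.6%, 13.8 to 50.2) and *Esx1* in 1, while *Ascl2*, *Wnt7b*, *Tex19.1* and *Elf5* had 0 UMIs, which allows a share of cells with a UMI of up to 11.1% each. As a background, an unnamed cluster of 255 cells (cluster 1, median 19814 UMIs) had *Tinagl1* in 9.02% of cells (5.804 to 13.2), *Tex19.1* in 1.18% and *Esx1*, *Ascl2* and *Wnt7b* in 1 cell each. The endothelium-like cells were deeper than these, and the part of free RNA in their *Tinagl1* was not tested.

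The 15 other markers summed to 3803 CPM in this d4 cluster and to 141 in the other cells. *Rhox6* had 1632 CPM against 10.6, *Rhox9* 1164 against 10.2, *Krt7* 140 against 0.388 and *Plet1* 104 against 1.29. Again *Cdx2* was lower inside than outside, 11.7 against 29.1 CPM. *Eomes* and *Sox21* had 0 UMIs inside and were near 0 outside as well (0.647 and 0.259 CPM). The PGC-like cluster of d4 EB (47 cells, median 24593 UMIs) also held *Tinagl1*, in 13 cells (27.7%, 12.2 CPM, near the 12.5 CPM of the endothelium-like cells), and *Wnt7b*, in 6 cells with 21.1% of its UMIs. The PGC-like clusters were another place of *Tex19.1*, with 56.4% of its UMIs at d2 and 26.9% at d4. In the PGC-like cluster it was found in 14 of 96 cells at d2 (7.36 CPM), 85 of which the authors list as PGCLC, and in 16 of 47 cells at d4 (18.3 CPM), 44 of which are so listed. The mesoderm-like cluster of d2 EB held 30.8% of its UMIs, at a low level (9 of 386 cells, 1.26 CPM).

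How often the genes met in the same cell was then counted. Cells with at least 3 of the 6 genes made up 17 of 537 cells in d2 EB (3.17%, 1.85 to 5.02), 20 of 368 in d4 EB (5.43%, 3.35 to 8.27), 9 of 1416 in WT (0.636%, 0.291 to 1.20) and 45 of 1699 in dCD (2.65%, 1.94 to 3.53). This limit is a line drawn through a range, not a border of a cell type, and 22, 20, 72 and 101 further cells held exactly 2 of the genes. At least 4 genes were found in 4, 3, 1 and 10 cells, 5 in 1 cell of d2 EB, and all 6 in none of the 4 EB libraries. In the other 6 libraries 1 to 4 cells held at least 3 genes, 0.441% of 2i ESC, 0.971% of S+L ESC, 0.357, 0.692 and 1.003% of d1, d2 and d3 EpiLC and 0.536% of EpiSC. The WT share lay within the range of these deeper libraries, in which 0 or 1 cell remained after thinning. So the share in dCD was above that in WT beyond counting error when all 6 genes were counted. Without *Tex19.1* the shares were 0.494% in WT (0.199 to 1.02) and 0.942% in dCD (0.539 to 1.52), with intervals that overlap.

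These cells were deep. Their median was 40349 UMIs in d2 EB against 23675 in cells with none of the genes, 44600.5 against 20086 in d4 EB, 21260 against 12431 in WT and 24514 against 10947.5 in dCD. After every cell was thinned to the same number of UMIs (15374 in E14Tg2a, 6831 in R1), 7 of 519, 9 of 331, 1 of 1366 and 10 of 1529 cells held at least 3 genes. The order of WT and dCD held at equal depth, but on few cells and with intervals that overlap (0.00185 to 0.407% in WT and 0.314 to 1.20% in dCD). None of the cells with at least 3 genes was called as a doublet.

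Their place differed between libraries. At d2 all 17 lay in cluster 3, and at d4 18 of 20 lay in the extraembryonic ectoderm-like cluster and 2 in the PGC-like cluster. In WT 7 of 9 lay in the extraembryonic ectoderm-like cluster of R1 and 2 in the PGC-like one. In dCD, 22 of 45 were in that extraembryonic ectoderm-like cluster, 15 in an unnamed cluster (cluster 1) and 8 in a naive pluripotency-like cluster (cluster 4), both made almost wholly of dCD cells, so that the cluster and the library cannot be told apart. Without *Tex19.1*, cells with at least 3 genes numbered 16 in d2 EB, 12 in d4 EB, 7 in WT and 16 in dCD.

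The combinations show which genes met. In d2 EB the leading ones were *Esx1* with *Tinagl1* (9 cells) and both with *Wnt7b* (7 cells). In d4 EB they were *Ascl2*, *Tinagl1* and *Tex19.1* (6 cells), *Esx1* and *Tinagl1* (6 cells) and *Esx1*, *Wnt7b* and *Tinagl1* (5 cells). Of the 72 WT cells with exactly 2 genes, 54 held *Esx1* and *Tinagl1*. In dCD the same pair was found in 35 cells, but *Tinagl1* with *Tex19.1* in 33, *Wnt7b* with *Tex19.1* in 14 and *Esx1* with *Tex19.1* in 12. Triplets with *Tex19.1* were frequent in dCD, 15 cells with *Wnt7b* and *Tinagl1* and 12 with *Esx1* and *Tinagl1*, while *Esx1*, *Wnt7b* and *Tinagl1* without it met in 6. *Tex19.1* was present in 39 of the 45 dCD cells with at least 3 genes and in 2 of the 9 such WT cells.

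The share of cells with a gene was also set against how many of the other 5 genes the cell held, a measure that does not use the gene itself to choose the cells. *Esx1* was found in 0.976% of d2 EB cells with none of the others and in 46.7% of those with at least 2, in 1.12 and 32.4% in d4 EB, in 1.90 and 34.8% in WT and in 3.30 and 26.3% in dCD. For *Tinagl1* these shares were 7.52 and 89.5% in d2 EB, 14.5 and 83.3% in d4 EB, 25.0 and 41.2% in WT and 9.15 and 59.7% in dCD. The 41.2% of WT is 7 of 17 cells, with an interval of 18.4 to 67.1 that holds the 25.0%, and WT cells with 1 other gene had *Tinagl1* in 64 of 160 (32.3 to 48.0%). *Esx1* was therefore more frequent in cells with at least 2 of the others in all 4 EB libraries. This did not hold for each gene alone. In cells with and without *Tex19.1* its shares were 14.3 and 4.52% in d2 EB and 9.09 and 5.86% in dCD, but 3.57 and 5.59% in d4 EB and 5.56 and 5.95% in WT. In dCD it was found in 0 of 15 cells with *Ascl2*. In WT *Tinagl1* went with *Esx1* but not with *Tex19.1* (5.56% of WT cells with *Tex19.1* and 28.1% of those without). Deeper cells hold more of every gene. *Wnt7b* went from 1.93 to 37.5%, 0.749 to 27.3%, 1.17 to 12.9% and 2.28 to 26.2%. *Ascl2* went from 6.02 to 24.2% in d2 EB and 0.749 to 34.2% in d4 EB, but from 0.748 to 2.50% in WT and 1.07 to 1.38% in dCD. It belonged to the co-detected genes in E14Tg2a, and in R1 it was too rare to tell.

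*Tex19.1* differed between WT and dCD, taken as whole libraries, in its relation to *Tinagl1*, not to *Wnt7b*. Its share went from 4.92 to 13.5% in d2 EB and from 3.99 to 28.1% in d4 EB. In WT it went from 6.07% of cells with none of the other genes to 2.82% of those with at least 2 (2 of 71 cells), and in dCD from 18.5 to 45.3% (39 of 86 cells, 34.6 to 56.5). It was found in 1.05% of WT cells with *Tinagl1* and 6.57% of those without, but in 30.6 and 19.18% of dCD cells. With *Wnt7b* the direction was the same in both, 19.4% of WT cells with it (7.45 to 37.5) and 4.77% of those without, and in dCD 41 of 79 cells with it (51.9%) and 311 of 1620 without. In WT its shares with and without *Esx1* were close, 4.76 and 5.11%, and in dCD they were 28.8 and 20.2%. Beyond *Tex19.1*, *Tinagl1* was found more often in cells with *Esx1* than without in all 4 EB libraries, 85.2 against 9.22% in d2 EB, 85.0 against 18.4% in d4 EB, 71.4 against 24.1% in WT and 54.1 against 10.6% in dCD. The shares in WT and dCD are taken over different cell types. A mesoderm-like cluster of WT (cluster 2) held *Tinagl1* in 177 and *Tex19.1* in 2 of 516 cells, and dCD had 14 cells of it. The part of cell types in the differences between WT and dCD was not tested.

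WT and dCD d4 EB were then compared as whole libraries. Of 5 genes tested, 2 were called, both higher in dCD, against 9.99% of 16272 genes (1026 higher and 599 lower), a larger share on a count of 2. With a pseudocount of 0.1 CPM, 3287 genes in place of 1625 were past 2-fold. *Tex19.1* rose 4.93-fold (3.97 to 6.19, log2 2.09) and *Wnt7b* 2.72-fold (1.95 to 3.85, log2 1.14), the latter below the line with equally weighted cells (log2 0.93). *Tinagl1* had a ratio of 0.521 (0.469 to 0.579, log2 -0.91), short of a call, but past it with equally weighted cells (-1.04) or thinned cells (-1.06). The ratio was 1.19 (0.997 to 1.43, log2 0.24) for *Esx1* and 1.04 (0.538 to 2.03, log2 0.03) for *Ascl2*. The sum of the 6 genes, 66.1 CPM in WT and 68.0 in dCD (ratio 1.03, 0.956 to 1.11), hid these opposite differences: it stood at log2 1.18 without *Tinagl1* and at -0.45 without *Tex19.1*, the latter chosen after the values were seen.

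Shares of cells gave the same order. *Tex19.1* was found in 5.08% of WT and 20.7% of dCD cells (2.12 and 13.0% after thinning), *Wnt7b* in 2.19 and 4.65% (0.952 and 2.55%) and *Tinagl1* in 26.9 and 13.5% (18.7 and 8.76%). *Esx1* was found in 5.93 and 6.53% (3.22 and 4.38%) and *Ascl2* in 0.706 and 0.883% (0.293 and 0.719%). As a background, a mesoderm-like cluster of 383 WT cells (cluster 5, median 12605 UMIs) had *Esx1* in 1.31%, *Tex19.1* in 0.261% and *Tinagl1* in 9.66% of cells, and 0 UMIs of *Wnt7b* and *Ascl2*, which allows up to 0.783%. An unnamed cluster of 522 dCD cells (cluster 3, median 10472 UMIs) had *Esx1* in 2.30%, *Tex19.1* in 1.92% and *Tinagl1* in 6.32% of cells, and again 0 UMIs of *Wnt7b* and *Ascl2* (up to 0.575%).

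Whole-library levels mix cell types, and these differed. Markers of extraembryonic mesoderm and allantois were lower in dCD for 8 of 8 genes (1039.7 CPM summed in WT, led by *Hand1* with 626, against 220 in dCD), and 5 of 5 2-cell markers were higher (0.0972 against 40.2 CPM, led in dCD by *Gm8300*). Of the naive pluripotency markers 2 of 6 were higher (531 against 746 CPM summed, led by *Tbx3* in both). Among the other lists 0 of 6 PGC and 0 of 8 primitive streak markers were called, 2 of 7 surface ectoderm and 1 of 7 endoderm markers were higher, and 2 of 8 endothelium and 3 of 6 primitive blood markers were lower. Their part in the differences of the 6 genes was not tested.

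The clusters showed where the difference sat. In WT the PGC-like cluster (171 cells) held 87.6% of the *Tex19.1* UMIs (31.8 CPM, 61 cells) and 54.2% of those of *Wnt7b* (9.72 CPM). In dCD, *Tex19.1* had 33.9 CPM in cluster 1 (160 of 589 cells, 46.4% of its UMIs) and 35.0 CPM in the naive pluripotency-like cluster 4 (391 cells, 39.8%). *Wnt7b* had 11.7 CPM in that cluster 4 (49.0% of its UMIs) and 4.67 CPM in cluster 1. Most of the *Tex19.1* and *Wnt7b* of dCD thus lay outside extraembryonic ectoderm-like cells. *Tinagl1* had a second site in WT, a mesoderm-like cluster of 516 cells (cluster 2, 45.7 CPM, 34.3% of cells) that held 31.4% of its UMIs, and dCD had only 14 cells of that cluster.

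The extraembryonic ectoderm-like cluster of R1 (cluster 6) held cells of both genotypes, 153 of WT (median 19442 UMIs) and 148 of dCD (median 17049.5). Its name rests on 8 of 15 markers at least 2-fold higher than in other cells, with a median fold of 2.12, close to the 1.79 of the surface ectoderm markers. This comparison was added after the clusters were seen. *Esx1* had 59.3 CPM (51.2 to 68.3) in WT and 68.6 (59.6 to 78.6) in dCD, detected in 41.2 and 35.1% of cells, and the cluster held 88.5 and 71.9% of its UMIs. *Tinagl1* had 175 CPM (161 to 190) in WT and 121 (109 to 134) in dCD, in 81.7 and 65.5% of cells. *Wnt7b* had 6.49 and 10.3 CPM, in 8.50 and 13.5% of cells, and *Ascl2* 4.01 and 2.65 CPM, in 2.61 and 1.35%. *Elf5* had 0 UMIs in both genotypes, with a floor of 0.926 CPM in WT and 0.995 in dCD. *Tex19.1* had 1 UMI in WT (0.309 CPM) and 46 UMIs in 26 cells of dCD (15.3 CPM, 17.6% of cells).

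Within this cluster 1 of 5 genes tested was called, against 11.4% of 11975 genes, and a count of 1 sets the 6 genes no further apart from all genes. It was *Tex19.1*, with a ratio of 49.4 (8.43 to 1992.51, log2 3.63) that rests on 1 UMI in WT. The ratio of dCD to WT was 1.16 (0.946 to 1.42, log2 0.21) for *Esx1*, 0.689 (0.603 to 0.788, log2 -0.53) for *Tinagl1*, 0.661 (0.237 to 1.72, log2 -0.46) for *Ascl2* and 1.58 (0.882 to 2.90, log2 0.59) for *Wnt7b*, which passed the line with thinned cells (log2 1.17). The 6 genes summed to 245 CPM in WT and 217 in dCD, a log2 ratio of -0.17 that turned its sign with thinned cells (0.0249). For *Esx1* and *Tinagl1* the ratio and its interval were within 2-fold, while counts were too low to place *Ascl2* and *Wnt7b*, and *Elf5* had no ratio.

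**Figure D2:**
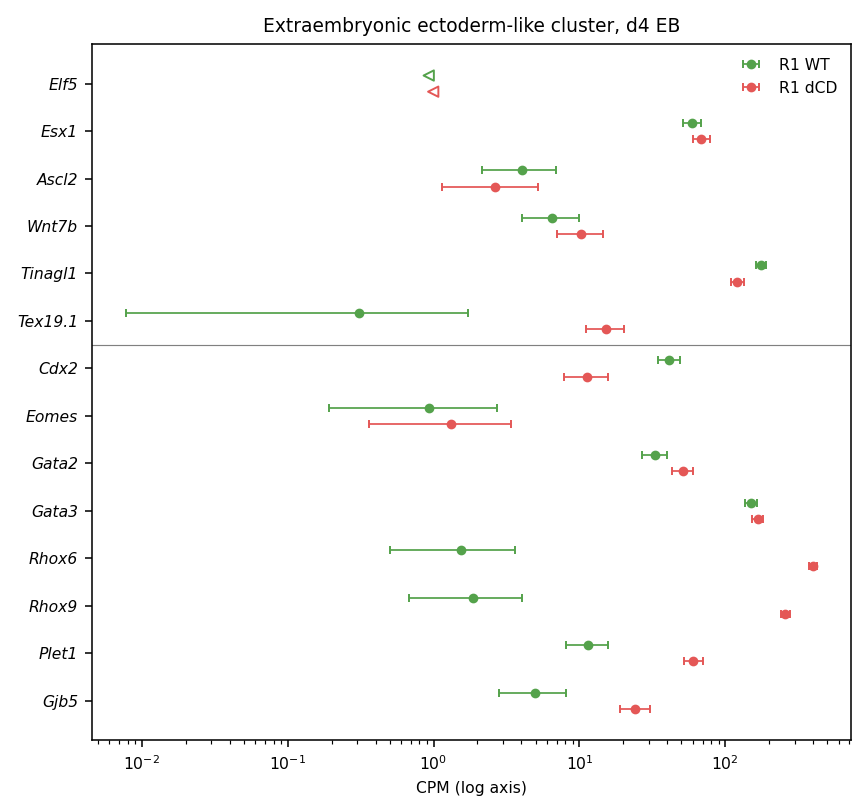
Points show CPM on a log axis in the extraembryonic ectoderm-like cluster of R1 d4 EB for the 6 genes (above the line) and 8 other markers (below it), WT in green and dCD in red, with 95% Poisson intervals, and open triangles mark 0 UMIs, drawn at the floor of 3 UMIs. *Esx1* lies at 59.3 and 68.6 CPM, while *Tex19.1*, *Rhox6* and *Rhox9* are far higher in dCD and *Cdx2* is lower.

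Of the 15 other markers, 13 could be tested in these cells, of which 5 were higher in dCD and 1 lower, with a median log2 ratio of 0.63 against 0.04 over all genes. *Rhox6* had 1.54 CPM in WT and 399.5 in dCD, *Rhox9* 1.85 and 258, and the surface protein gene *Plet1* 11.4 and 60.3. In the other cells of the libraries *Rhox6* had 4.73 CPM in WT and 66.1 in dCD, *Rhox9* 6.57 and 66.0, and *Plet1* 1.27 and 4.73. In WT *Rhox6* and *Rhox9* were thus lower inside the cluster than outside it, and their higher level in dCD was not limited to the cluster. In dCD, *Rhox6* was found in 39 and *Rhox9* in 34 of the 148 cells, and 1 cell held 41.8% of the *Plet1* UMIs. The connexin gene *Gjb5* (4.94 and 24.2 CPM) was also higher, and *Cdx2* was lower (41.1 and 11.3 CPM). Unlike in E14Tg2a, *Cdx2* was higher inside the cluster than in the other cells of the library, which had 25.5 CPM in WT and 3.32 in dCD. *Gata3* (150.4 and 167 CPM) and *Gata2* (32.7 and 51.1 CPM) were not called, and *Eomes* was near 0 in both (0.926 and 1.33 CPM). The list summed to 397 CPM in WT and 1227 in dCD, with *Rhox6* as its most abundant gene in dCD and *Gata3* in WT.

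The related lists in the cluster were called as follows. All 3 Rhox genes were higher, *Rhox5* at 3.40 CPM in WT and 102 in dCD, and 0 of 4 simple keratins were called, *Krt18* at 1674 and 1716 CPM. Of 13 regulators of trophoblast stem cells, *Tfap2c* (11.7 and 32.8 CPM), *Tfap2a* (24.1 and 56.4 CPM) and *Sox2* were higher and *Cdx2* lower. Counts were 6 higher and 0 lower of 13 signals, receptors and surface proteins, 0 and 1 of 6 genes of later trophoblast (*Cdkn1c*, 183 and 9.95 CPM), 0 and 1 of 8 WNT receptors and targets (*Axin2*, 24.1 and 9.62 CPM) and 0 and 1 of 2 relatives (*Wnt7a*, 5.87 and 0.332 CPM). Of the lists of other cell types, surface ectoderm had 3 higher of 5 in the cluster (*Tfap2a*, *Dlx5* and *Dlx6*, median log2 1.19), extraembryonic mesoderm 2 higher and 1 lower of 6 and endothelium 1 and 1 of 2. PGC (of 4), endoderm (of 2), naive pluripotency (of 5) and primitive streak (of 1) had 1 higher each, and no gene of 2-cell embryos or primitive blood could be tested. Over whole libraries, the 15 markers had 5 higher and 2 lower (258 CPM summed in WT, led by *Gata3* with 83.4, and 468 in dCD, led by *Rhox6* with 110.1, with none at 0). The Rhox genes had 3 of 3 higher, the regulators 6 higher and 2 lower of 16, the signals 7 and 1 of 14, the keratins 0 and 1 of 4, later trophoblast 0 and 4 of 7, the WNT genes 1 and 1 of 8 and the relatives 1 and 0 of 4.

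Whether dCD cells held the full set or a few genes can be read from single cells of this cluster. At least 3 of the 6 genes were found in 7 of 153 WT cells (4.58%, 1.86 to 9.20) and 22 of 148 dCD cells (14.9%, 9.56 to 21.6). Leaving out *Tex19.1* brought these to 7 and 12 cells. *Esx1* and *Tinagl1* were found together in 53 WT and 46 dCD cells. Over the whole dCD library, no cell held more than 4 of the genes, and the 4 were *Esx1*, *Wnt7b*, *Tinagl1* and *Tex19.1* in 7 of the 10 dCD cells with 4. Both dCD cells with *Elf5* lay outside this cluster, and each held *Wnt7b* and *Tex19.1* as well. At this depth a few of the 6 genes, not the full set, were detected together in both genotypes. They were mostly *Esx1* and *Tinagl1*, joined by *Wnt7b* in 6 WT and 10 dCD cells and by *Tex19.1* in some dCD cells, while *Elf5* had 0 UMIs in the cluster and *Ascl2* was found in at most 2.61% of its cells. A gene that is not detected may still be expressed below this depth.

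Cells with at least 3 genes also differed in the other lists. Their simple keratins had a median level per cell (UMIs scaled to the same total in every cell) of 43.4 in d2 EB, 44.4 in d4 EB, 83.3 in WT and 6.12 in dCD, against 2.52, 2.50, 3.87 and 1.79 in cells with none of the genes. The Rhox genes had a median of 0.700, 26.6, 0 and 11.6, against 0, 0.616, 0 and 0. The 15 other markers had 6.02, 40.0, 4.70 and 11.5, against 4.17, 1.18, 1.96 and 2.25. The WT and dCD cells compared here are not of the same clusters, since 7 of 9 in WT but 22 of 45 in dCD lay in the extraembryonic ectoderm-like cluster, within which the simple keratins were not called.

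The genes most like the summed 6 over single cells were ranked by Pearson correlation of log values. This sum is weighted to abundant genes. *Tinagl1* gave 362 of its 691 UMIs in d2 EB, 754 of 1044 in d4 EB and 980 of 1361 in WT. In dCD *Tinagl1* gave 568 and *Tex19.1* 532 of 1557. The ranking thus reflects mainly these genes and not the 6 equally. In d2 EB they were *Krt7* (r = 0.754 over 537 cells), *3830417A13Rik* (0.731) and *Igfbp2* (0.718), and in d4 EB *Krt18* (0.782 over 368 cells), *Hspb1* (0.742), *Rhox9* (0.713) and *Rhox6* (0.707). The correlations were lower in R1, with *Wnt4* (0.512 over 1416 cells), *Tnfrsf12a* (0.502) and *Igfbp2* (0.481) leading in WT and *3830417A13Rik* (0.4405 over 1699 cells), *Rhox6* (0.377) and *Krt7* (0.368) in dCD. *Cryab* was among the 10 highest in d2 EB, WT and dCD. The cells of 1 library share depth and clusters, so these values are a description.

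The promoter windows of *Esx1*, *Tinagl1* and *Tex19.1* are shown because these genes made up the most frequent pairs in dCD cells, *Esx1* with *Tinagl1* and *Tinagl1* with *Tex19.1*. Entries were found for 5 of the 6 genes, not for *Wnt7b*. The windows shown are the 250 bases upstream of the start given by RefSeq (GRCm38.p6), read 5′ to 3′ on the strand of the gene, with CpG in capitals, at chrX:137120327-137120576 (minus), chr4:130175123-130175372 (minus) and chr11:121145893-121146142 (plus). The RefSeq start of *Esx1* differs from that of the annotation used for the coordinates given earlier, so that its window lies inside that gene span. They held 24, 5 and 15 CpG, as many as or more than which were found in 12.0, 55.6 and 27.3% of 32851 promoters of the same length (median 6). RefSeq gives a second start for *Tinagl1*, whose window held 13 CpG (31.5%) and is not shown because it overlaps an exon. The motif AGATAA, bound by GATA factors, is held on either strand by 9.99% of these promoters and GCCNNNGGC, bound by TFAP2 factors, by 13.7%, and their letters are in none of the 3 windows shown.
Esx1: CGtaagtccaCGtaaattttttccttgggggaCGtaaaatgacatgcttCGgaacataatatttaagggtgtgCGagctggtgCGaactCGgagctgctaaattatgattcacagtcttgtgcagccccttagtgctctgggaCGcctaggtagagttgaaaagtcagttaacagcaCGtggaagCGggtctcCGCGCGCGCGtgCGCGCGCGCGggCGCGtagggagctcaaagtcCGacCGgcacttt
Tinagl1: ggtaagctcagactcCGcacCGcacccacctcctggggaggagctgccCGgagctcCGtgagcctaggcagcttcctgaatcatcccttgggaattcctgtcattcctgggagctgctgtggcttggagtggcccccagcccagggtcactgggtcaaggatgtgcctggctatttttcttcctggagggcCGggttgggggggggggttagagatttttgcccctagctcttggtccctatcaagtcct
Tex19.1: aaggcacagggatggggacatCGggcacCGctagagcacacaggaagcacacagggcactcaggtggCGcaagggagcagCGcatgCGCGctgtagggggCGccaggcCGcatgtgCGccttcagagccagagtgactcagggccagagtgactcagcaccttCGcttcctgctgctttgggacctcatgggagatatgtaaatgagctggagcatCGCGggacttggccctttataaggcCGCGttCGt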

How the data were processed

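The authors deposited UMI counts per gene and cell for 10 libraries prepared from 3′ ends. For E14Tg2a they counted with Cell Ranger 2.1.0 on GRCm38 and brought the libraries to a common number of mapped reads. The R1 counts are limited to cells with at least 2000 genes, and the counter is not given in the sources used here. Cells of E14Tg2a were assigned to libraries by barcode suffix, and 98.7% of 27998 identifiers were paired with a symbol. The 6 genes and the lists were chosen with earlier results of these data known.

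CPM were UMIs summed over cells. Log2 ratios had a pseudocount of 1 CPM and needed 10 UMIs over both libraries. With 1 library per group no test was run. Cells were thinned to 15374 (E14Tg2a) or 6831 (R1) UMIs, leaving out 18 shallower cells of d2 EB, 37 of d4 EB, 50 of WT and 170 of dCD. Doublets were called with Scrublet in scanpy 1.11.5, 6 in d2 EB, 6 in d4 EB, 10 in WT and 11 in dCD, and kept.

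Clusters were made without the 6 genes, by k-means for E14Tg2a EB (3 at d2 and 4 at d4, 20 principal components) and by Leiden for R1 (10 components, resolution 0.3, 20 neighbors), on 2000 variable genes. They were named from marker lists, and a rule that leaves clusters with mixed leading markers unnamed was tightened after they were seen. Genes named are the 6 genes, members of the lists and the 10 genes per EB library with the highest correlation, among genes found in at least 20 cells. *Tbx3*, *Hand1* and *Gm8300* are list members.

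Alternatives changed depth, doublets, the number of genes or UMIs required, the genes summed, scaling, cell weights and the pseudocount. Computations were tested on simulated data. Versions were Python 3.11.15, numpy 2.4.6, scipy 1.17.1, pandas 2.3.3, scikit-learn 1.9.0, anndata 0.12.19, igraph 0.11.9 and matplotlib 3.10.9.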

Additional observations from a re-analysis of the deposited data

How the results depend on the processing

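No paired analysis was possible because each group has 1 library. No called value turned its sign under any alternative run, and the cause of the shifts given here was not tested. Calls held under all alternatives for *Tex19.1* from WT to dCD (log2 2.06 to 2.28), for *Tinagl1* from d2 to d4 EB (1.39 to 1.66) and d2 EpiLC to d2 EB (3.59 to 5.28), and for *Esx1* (2.05 to 3.50) and *Wnt7b* (1.46 to 5.19) in the latter. *Tex19.1* from d2 to d4 EB went from 1.32 to 0.95, below 2-fold, with the cell richest in the gene left out of each library. The share of cells with at least 3 genes in d2 EB, d4 EB, WT and dCD moved from 3.17, 5.43, 0.636 and 2.65% to 1.35, 2.72, 0.0732 and 0.654% in thinned cells, to 7.26, 10.9, 5.72 and 8.59% with 2 genes required, to 0.745, 0.815, 0.0706 and 0.589% with 4, and to 0.931, 2.72, 0.141 and 0.824% with 2 UMIs needed for detection. Without *Tex19.1* it was 3.26% in d4 EB and 0.942% in dCD. The remaining 6 of 24 alternative shares, with doublets left out in all 4 libraries among them, lay within the counting interval. The summed log2 ratio of dCD to WT went from 0.04 to 1.18 without *Tinagl1* and to -0.45 without *Tex19.1*. That of d4 to d2 EB went from 1.19 to 0.87 with equally weighted cells, 0.996 with thinned cells and 0.41 without *Tinagl1*, and that of d2 EB to d2 EpiLC from 1.43 to 1.02, 0.98 and 0.44. In the extraembryonic ectoderm-like cluster it went from -0.17 to 0.0249 with thinned cells. The alternatives within this cluster, the sum without *Tex19.1* and the removal of the richest cell were chosen after seeing the data. The other 13 summed ratios stayed within counting error, as did 100 of 110 values of single genes. With a pseudocount of 0.1 CPM, 3287 genes in place of 1625 passed 2-fold from WT to dCD and 2879 in place of 1833 from d2 to d4 EB, and the other 7 counts were within 1.5 times. *Elf5* in all libraries had too few UMIs to compare and *Ascl2* in R1 had few, and low level and low depth cannot be told apart. With 1 library and 1 dCD line, genotype, line and library cannot be told apart.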
